A study of Mus musculus with 4 samples.

Results

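Pseudogenes are copies of genes that have usually lost the ability to encode the protein of the gene they came from, here called the source gene. Processed pseudogenes arise when a spliced messenger RNA is copied back into DNA and inserted elsewhere, so they lack introns and often sit on another chromosome, whereas unprocessed pseudogenes arise by duplication of the gene itself. Abundant housekeeping messages have left many such copies in the mouse genome, and a short RNA read from a young copy can be hard to tell from one of its source gene. The genes described here are 100 pseudogenes of mouse brain, taken from 45215 genes that had a transcript of at least 200 bases. They were chosen by name and level: a symbol ending in -ps with or without digits, a symbol not starting with Rpl or Rps (ribosomal proteins), and a mean of at least 0.5 FPKM over the 4 libraries, with FPKM (sequenced fragments scaled to transcript length and library size) summed over the transcripts of each gene. At any level 1072 genes met the name rule, and another 37 had only transcripts under 200 bases. The level therefore chose the members, and their mean levels are a description. Just inside the threshold were H3f3a-ps1 (mean 0.509 FPKM), Anapc15-ps (0.510) and Tdg-ps (0.520), and just outside were Znf41-ps (0.480), Ybx1-ps2 (0.473) and Tmem181c-ps (0.461).

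The libraries were B6 (strain C57BL/6, a standard laboratory mouse), CAST (CAST/EiJ, an inbred strain derived from wild Mus musculus castaneus), F1i (labelled C57BL/6 x CAST/EiJ) and F1r (CAST/EiJ x C57BL/6). All were labelled wild type, and the labels name neither the dam of a cross nor the age of the mice. Each group was 1 library, made from brain RNA of 5 mice pooled (left hemispheres by the extraction protocol, whole brain by the design text), so no difference below has a replicate, an error or a test. Neuronal, astrocyte and oligodendrocyte markers were present in all libraries, with Snap25 at 499 to 635 FPKM and Mbp at 732 to 1039. All 3 oligodendrocyte markers were lowest in CAST, with a summed level of 1094 FPKM there and 1376 to 1749 elsewhere, as were all 3 microglial markers (31.5 against 34.8 to 52.4) and both choroid plexus markers (383 against 533 to 639). All 3 nasal mucosa markers were highest in CAST, at a sum of 32.6 against 1.22 to 13.2, as were both endothelial markers (21.8 against 14.01 to 17.2), and the part of tissue make-up in the differences below was not tested. In such bulk RNA fewer cells of a type and less RNA per cell cannot be told apart. The tables hold no read counts. Low values of genes with 1 long transcript lay at a step read as the worth of 1 fragment, which put the depth of CAST, F1i and F1r at 0.710, 0.800 and 0.717 times that of B6, and fragment numbers given as estimates below rest on that step. At these depths 19 of the 100 members had under 10 estimated fragments in at least 1 library.

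The label was checked against the GENCODE M21 annotation, which holds all 100 members. It types 77 as processed pseudogenes, 2 as transcribed processed, 10 as transcribed unprocessed, 3 as unprocessed, 3 as transcribed unitary and 1 as polymorphic. The other 4 (Ftl1-ps1, Nutf2-ps1, Anapc15-ps and Fam188b2-ps) are typed as protein-coding there. The name rule also let through 4 pseudogenes of mitochondrial ribosomal proteins (Mrpl48-ps, Mrpl23-ps1, Mrps36-ps1 and Mrps36-ps2), so the label non-ribosomal holds for the cytosolic ribosome. Mean levels ran from 0.509 to 55.0 FPKM with a median of 2.54, and 43 members lay below 2. The transcripts were short, with a median length of 646.5 bases and a range of 210 to 6065, and 81 members had a single transcript model.

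Near identity to the source gene was common, and the sequences carry that point. In GENCODE M21 transcripts (GRCm38), 97 of the 100 members had a match to a protein-coding gene, with a median identity of 98.9%. For 42 members the match was at least 99% identical over at least 90% of the length. A median of 76.3% of each member's 31-base words recurred in the transcripts of another gene, 11 members shared all of their words, and 6 shared under 5%. The stretches below are 90 bases, 5′ to 3′, from the coding part of the source gene and the matching part of its copies. They were picked for holding the most differences, which are in capitals (Apoo-ps has none), and all letters are those of the C57BL/6J-derived reference, since no CAST sequence was used. The first set is Cbx3, which encodes the heterochromatin protein HP1 gamma, with its copies Cbx3-ps7 (chr1:58646997-58647086, plus strand) and Cbx3-ps6 (chr14:73955153-73955242, minus strand), shown because these almost equal copies had very different values.
Cbx3: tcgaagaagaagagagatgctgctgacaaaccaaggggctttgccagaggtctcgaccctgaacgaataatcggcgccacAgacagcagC
Cbx3-ps7: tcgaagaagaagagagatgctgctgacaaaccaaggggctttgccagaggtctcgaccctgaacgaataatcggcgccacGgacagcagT
Cbx3-ps6: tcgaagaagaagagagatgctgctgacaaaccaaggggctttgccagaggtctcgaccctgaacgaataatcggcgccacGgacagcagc
Over all 552 aligned bases Cbx3-ps7 had 2 mismatches to Cbx3 and Cbx3-ps6 had 1. The next pairs are Itpa, an enzyme that clears inosine triphosphate, with Itpa-ps1 (chr2:94384706-94384795, minus strand), and Tubb4b, a beta-tubulin, with Tubb4b-ps1 (chr5:7180449-7180538, plus strand).
Itpa: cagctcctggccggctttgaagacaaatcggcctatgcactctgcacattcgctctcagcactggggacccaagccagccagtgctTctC
Itpa-ps1: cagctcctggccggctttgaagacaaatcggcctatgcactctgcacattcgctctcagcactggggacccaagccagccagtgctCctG
Tubb4b: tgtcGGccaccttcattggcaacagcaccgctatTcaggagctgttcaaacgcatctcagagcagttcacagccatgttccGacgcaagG
Tubb4b-ps1: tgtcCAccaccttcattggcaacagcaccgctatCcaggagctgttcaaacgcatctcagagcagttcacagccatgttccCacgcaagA
Itpa-ps1 had 4 mismatches over 597 aligned bases, and Tubb4b-ps1 had 19 mismatches over 1339. The last sets are the least and the most alike of the 9 pairs aligned in this way, and other members had matches as low as 70.5% (Zfp133-ps). Pisd-ps1, a duplicated copy of the phosphatidylserine decarboxylase gene Pisd, had 53 mismatches over 1128 aligned bases, while Apoo-ps (chr13:107414546-107414635, minus strand) had 0 over 586 to Apoo, which encodes a protein of the mitochondrial inner membrane.
Pisd: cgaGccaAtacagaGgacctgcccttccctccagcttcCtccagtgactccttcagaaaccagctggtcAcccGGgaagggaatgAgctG
Pisd-ps1: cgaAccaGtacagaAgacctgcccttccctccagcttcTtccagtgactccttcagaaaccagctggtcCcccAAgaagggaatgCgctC
Apoo: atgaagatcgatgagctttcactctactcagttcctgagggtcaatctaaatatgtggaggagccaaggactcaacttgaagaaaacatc
Apoo-ps: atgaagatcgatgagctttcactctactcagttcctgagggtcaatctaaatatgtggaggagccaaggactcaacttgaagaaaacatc

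CAST was compared with B6 to see how these pseudogenes differ between the parental strains. Each difference is taken on log2(FPKM + 1), a scale on which changes of weakly expressed genes come out too small, and the 2-fold rule calls a gene with a difference of 1 or more in size. Below, 4 values in a row stand in the order B6, CAST, F1i, F1r. By this rule 26 members were higher in CAST and 2 were lower, against 2.86% higher and 2.23% lower among all 15724 genes with a mean of at least 0.5 FPKM. The median difference of the members was 0.32 and that of all genes 0.04. FPKM times transcript length in kilobases, which stands for the share of a library's fragments, added up to 336 over all members in B6, to 597 in CAST, and to 480.4 and 457 in the hybrids F1i and F1r. The 96 pseudogenes named Rpl or Rps that passed the same threshold had 22.9% higher and 6.25% lower, and 789 other annotated processed pseudogenes had 23.1% and 3.04%. These shares lie near that of the members, and with 1 library a group no test of a difference between the sets was possible. Rescaling all libraries to the same total moved the median of all genes to 0.33, with 4.26% higher and 1.28% lower, and gave 30 members higher and 2 lower, with a member median of 0.54. Without the filter on level, over 272 genes of the name rule with a value above 0 in any library, the median was 0. Above 0 were 65 of the 100 members and 55.5% of all genes. Among 13338 protein-coding genes 1.13% were higher and 1.78% lower.

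**Figure D1:**
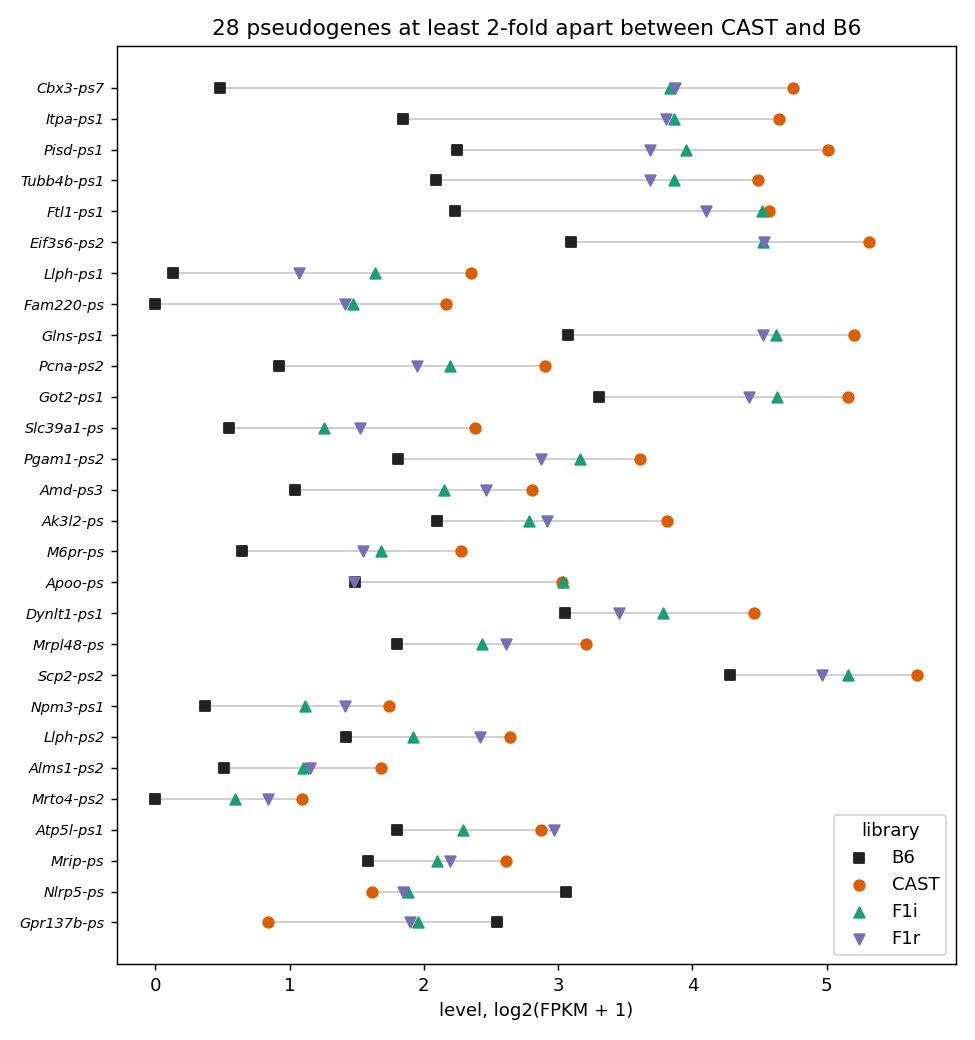
Level of the 28 pseudogenes at least 2-fold apart between CAST and B6, as log2(FPKM + 1) on the horizontal axis, with 1 point for each of the 4 libraries and a grey line over their range. B6 is lowest in 26 rows or level with F1r (Apoo-ps), CAST is lowest in the bottom 2 rows, and both hybrids lie between the strains in most rows.

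Among chromatin and histone-related copies, 2 of 10 were higher and none lower. Cbx3-ps7 had the largest difference of all members, at 0.398, 25.9, 13.2 and 13.6 FPKM, a log2 difference of 4.27. This corresponds to an estimated 9 fragments in B6 and 434 in CAST. Its near-twin Cbx3-ps6 was at 2.72, 1.95, 3.08 and 2.78 FPKM, without passing the rule, and Cbx3 itself was at 33.5, 16.0, 24.6 and 22.6. So 1 copy was high in CAST and intermediate in both hybrids, the other was alike in the 4 libraries, and the source gene was highest in B6. Npm3-ps1, a copy of a nucleoplasmin-family histone chaperone gene, was higher in CAST at 2.34 FPKM against 0.291 in B6, with 1.17 in F1i and 1.66 in F1r. Its source Npm3 was at 5.66 in B6 and 0.890 in CAST. The other 8 of this group, which are Cbx3-ps6 and copies of Hmgb1, Hmgn2, H3f3a, Anp32 and histone H2B genes, had differences from -0.70 to 0.09.

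Among copies of cytoskeletal genes 2 of 3 were higher in CAST. Tubb4b-ps1 was at 3.27, 21.5, 13.5 and 11.9 FPKM, beside 156, 143, 155 and 144 for Tubb4b. The lowest hybrid value of the pseudogene was above B6 and the highest below CAST, whereas the tubulin gene itself was nearly level. Dynlt1-ps1, a copy of the dynein light chain genes of chromosome 17, was at 7.29, 20.99, 12.8 and 9.96 FPKM. It is identical over its whole length to Dynlt1c, 1 of 5 genes with which it shares words. Dynlt1c had 1.64 in B6 and 4.59 in CAST, and so differed in the same direction. The others of the 5 were not set beside it. Actg-ps1, a gamma-actin copy, was at 2.44 and 5.04 without passing the rule.

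Copies of enzymes of cytosolic metabolism, the list that also held Got2, had 3 of 6 higher. Got2-ps1, a chromosome 5 copy (138364260 to 138365552) of the mitochondrial aspartate aminotransferase gene, was at 8.87, 34.8, 23.7 and 20.4 FPKM. Got2 went the other way, at 87.5, 38.1, 66.3 and 66.2. Pgam1-ps2 copies the glycolytic enzyme phosphoglycerate mutase without a single word of its own, and was at 2.51, 11.2, 7.97 and 6.34 FPKM. Pgam1 was at 91.4 in B6 and 80.8 in CAST. Amd-ps3, which matches Amd1 of polyamine synthesis at 99.9% over its 1005 bases in GENCODE M21, was at 1.06 and 5.997 FPKM. Amd1 was at 32.8 and 20.7. The deposited model of Amd-ps3 is longer, at 1496 bases. Aprt-ps, Ldha-ps2 and Fabp3-ps1 had differences from -0.07 to 0.61.

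Of 10 copies of respiratory chain and mitochondrial genes 2 were higher. Mrpl48-ps, from a subunit of the mitochondrial ribosome, was at 2.49, 8.23, 4.40 and 5.12 FPKM, and Mrpl48 at 25.3, 6.19, 15.9 and 15.4. Atp5l-ps1, from subunit g of ATP synthase, was at 2.48, 6.33, 3.89 and 6.85, so F1r lay above CAST. The group also held abundant members that did not pass the rule. Atp5k-ps2, a 210-base copy of ATP synthase subunit e, was at 53.9, 44.8, 46.5 and 41.0 FPKM, and Vdac3-ps1, from a channel of the outer mitochondrial membrane, at 17.0, 23.3, 18.8 and 19.7. FPKM of transcripts as short as Atp5k-ps2 leans heavily on the length correction. The most abundant member, Mpc1-ps, a copy of a mitochondrial pyruvate carrier gene that the prefix list left among the others, was at 64.2, 53.4, 53.5 and 48.9.

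Among copies of translation factors 1 of 5 was higher. Eif3s6-ps2, named for the older symbol of the initiation factor gene Eif3e, was at 7.57, 38.8, 21.99 and 22.2 FPKM, while Eif3e was level at 36.4 to 39.8. The deposited model of this copy is only 219 bases, shorter than in GENCODE M21, which makes its FPKM less certain. Eif4a-ps4, 99.9% identical to the RNA helicase gene Eif4a1, was at 30.3, 26.9, 29.5 and 31.5, and Tpt1-ps3, identical to the tumour protein gene Tpt1, at 19.98, 22.5, 21.4 and 20.6. Both were level across the libraries although hardly any of their sequence is their own.

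Among the 4 iron and redox copies Ftl1-ps1 was higher. It lies on chromosome 13 (74399694 to 74407346) and copies the ferritin light chain gene, whose protein stores iron. Ftl1-ps1 was at 3.70, 22.7, 21.9 and 16.2 FPKM, so F1i nearly reached CAST. Ftl1 was at 234, 33.3, 138 and 131, the largest drop of any source gene at -2.78. Fth-ps2, Txn-ps1 and Gstm2-ps1 had differences from -0.34 to 0.39.

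None of the 3 chaperone, 3 ubiquitin-related, 4 signalling and 2 zinc finger members passed the rule in either direction. Examples are Hspd1-ps3, from the mitochondrial chaperonin gene, at 4.20, 4.28, 4.85 and 4.10 FPKM in B6, CAST, F1i and F1r, and Rab11b-ps2, from a recycling endosome GTPase gene, at 11.98, 11.7, 11.2 and 13.4. Ube2n-ps1, identical to the ubiquitin-conjugating enzyme gene Ube2n, was at 7.04, 6.61, 5.07 and 6.55.

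The remaining 50 members fell in no list, with 15 higher and 2 lower. Itpa-ps1 was at 2.59, 24.1, 13.5 and 12.9 FPKM, and Itpa at 28.9, 7.499, 17.7 and 17.0. Itpa-ps1 lies within the span of Ttc17 on the same strand, so its reads cannot be parted by strand from those of that gene. Pisd-ps1 (chromosome 11, 3125904 to 3131004) was at 3.75, 31.3, 14.5 and 11.9, beside a level Pisd at 22.7, 22.3, 21.8 and 21.4. Pisd-ps1 shared 27.7% of its words with other genes, against 88.5% for Itpa-ps1. Glns-ps1, named for the older symbol of the glutamine synthetase gene Glul, was at 7.44, 35.8, 23.6 and 22.1, while Glul itself, the enzyme by which astrocytes turn glutamate into glutamine, was at 560 in B6 and 492 in CAST. Scp2-ps2, a copy of the sterol carrier protein gene, was the most abundant of the higher members at 18.4, 50.1, 34.8 and 30.2, with Scp2 at 53.9, 26.1, 40.02 and 36.1. On the deposited scale the fall of the source gene of this pair in CAST nearly matched the gain of the copy. Together their FPKM times kilobases came to 84.4 for B6 and 84.1 for CAST. Rescaling to the same total divides B6 by 1.109 and CAST by 0.874, which puts the CAST sum above that of B6.

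Several weakly expressed members of this remainder were close to 0 in B6. Fam220-ps, an X-linked copy, had a listed value of 0 in B6, while CAST had 3.48 FPKM and the hybrids had 1.77 (F1i) and 1.66 (F1r). The B6 value of Mrto4-ps2 was also 0, and CAST had 1.13, an estimated 19 fragments. Llph-ps1 was at 0.0972 in B6, an estimated 2 fragments, and at 4.09 in CAST, while its relative Llph-ps2 was at 1.68 and 5.25 and their source Llph at 8.03 and 2.79. Pcna-ps2, from the DNA replication clamp gene, was at 0.894 and 6.49, Slc39a1-ps, from a zinc transporter gene, at 0.466 and 4.21, and M6pr-ps, from a mannose 6-phosphate receptor gene, at 0.561 and 3.84. Ak3l2-ps, 99.6% identical to the adenylate kinase gene Ak4, was at 3.29 and 13.1. Alms1-ps2 (0.425 and 2.204) and Mrip-ps (1.99 and 5.11) had sources that were slightly higher in CAST, namely the centrosomal gene Alms1 (2.81 and 3.80) and, by sequence, Mprip (40.5 and 49.4). Each of these copies was above its B6 value in both hybrids.

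The members lower in CAST were both duplicated, unprocessed copies. Gpr137b-ps, on chromosome 13 (12615057 to 12650388), was at 4.85, 0.791, 2.88 and 2.72 FPKM. Its source on the same chromosome, Gpr137b, encodes a lysosomal membrane protein. Gpr137b was at 3.86, 7.71, 5.35 and 5.93, in the opposite direction at a smaller size. The best match of Gpr137b-ps to Gpr137b covered only 22.4% of its length, and 36.55% of its words recurred there. Nlrp5-ps was at 7.35, 2.06, 2.69 and 2.59 FPKM, with both hybrids near CAST. Nlrp5 itself, a gene known from oocytes, was under the 0.5 FPKM threshold. The best protein-coding match of Nlrp5-ps was not Nlrp5 but the vomeronasal receptor gene Vmn1r90, with 100% identity over 54.7% of its length.

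Source genes were set beside their copies to ask whether the pairs moved together. Dropping -ps and its digits from the symbol gave a gene with a mean of at least 0.5 FPKM for 72 members, 63 genes in all, and the best sequence match was that gene in 70 of them. The 2 exceptions were Gstm2-ps1, which matched Gstm1 best, and Spr-ps1. Of the 63 source genes 11 were lower in CAST by the 2-fold rule, or 17.5%, and 0 were higher, against 2.23% lower and 2.86% higher among all genes. With all libraries rescaled to the same total these counts were 4 and 1. Their median difference was -0.20. Of the 19 higher members with a source gene, 18 had a source below 0, and 9 had a source at least 2-fold lower. Without rescaling 44.4% of all genes were below 0. The count of 18 fell to 10 when all libraries were rescaled to the same total. The share of all genes below 0 after rescaling was not computed, so the 10 has no like background. Rescaling moved the median of all genes from 0.04 to 0.33. The median source difference was -0.58 beside the 19 higher members and -0.16 beside the 52 members that did not pass the rule, of which 35 had a source below 0. Within all 72 pairs 37 had the copy and the source on opposite sides of 0. In 32 of these the copy was above and the source below, and in 5 the reverse.

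**Figure D2:**
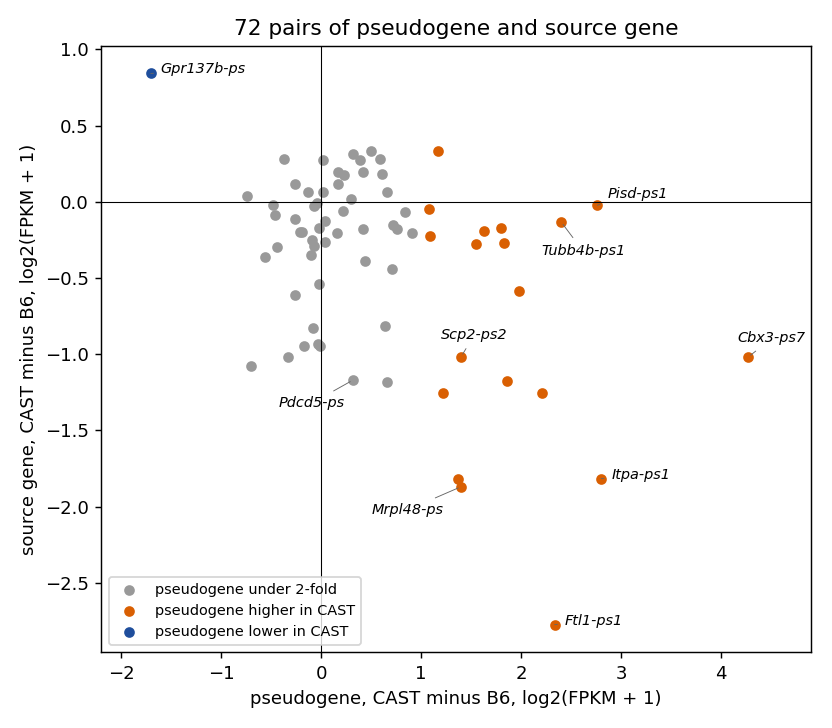
Difference of the source gene (vertical axis) against that of its pseudogene (horizontal axis), CAST minus B6 on log2(FPKM + 1), for 72 pairs. Orange points are pseudogenes higher in CAST, of which 18 of 19 lie below the horizontal zero line (10 after rescaling to the same total), blue is the lower Gpr137b-ps, and grey points did not pass the 2-fold rule.

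Both values of such a pair are uncertain, because reads from stretches common to both cannot be told apart and no source used here says how they were shared out. FPKM times length of each source gene was therefore summed with all of its listed copies. The median difference over the 63 sums was -0.15, as a plain log2 ratio. On log2(FPKM + 1) the median was -0.20 for the 63 source genes alone and 0.32 for all 100 members. All sums are on the deposited scale, and rescaling to the same total would raise each difference. Of the 18 source genes of the higher members 12 were already within 2-fold alone by FPKM times length, and 15 were when summed with their copies, from -0.80 for Itpa to 0.49 for Alms1. Where the source far outweighs the copy, as for Tubb4b (249 against 4.36 in B6), the sum follows the source. The 3 that came within 2-fold by the sum were Itpa, Llph and Got2. For Tubb4b it was 0.01, for Apoo 0.01, for Scp2 -0.00 and for Pisd 0.38. The exceptions were Ftl1 (-2.10), Mrpl48 (-1.35) and Npm3 (-1.34), where the source lost far more than the listed copy gained: FPKM times kilobases of Ftl1 was 226 in B6 and 32.1 in CAST, while that of Ftl1-ps1 was 3.41 and 21.2. Some source genes were 2-fold lower in CAST beside listed copies that did not pass the rule, among them Pdcd5 at 31.4 and 13.4 FPKM beside Pdcd5-ps at 19.1 and 24.1, and Tcea1 at 17.9 and 7.31 beside Tcea1-ps1 at 4.45 and 7.59. Other unlisted copies were not added, and Ftl1-ps1 alone shared words with 59 other genes. What part of a difference is due to the sharing of reads was not tested.

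**Figure D3:**
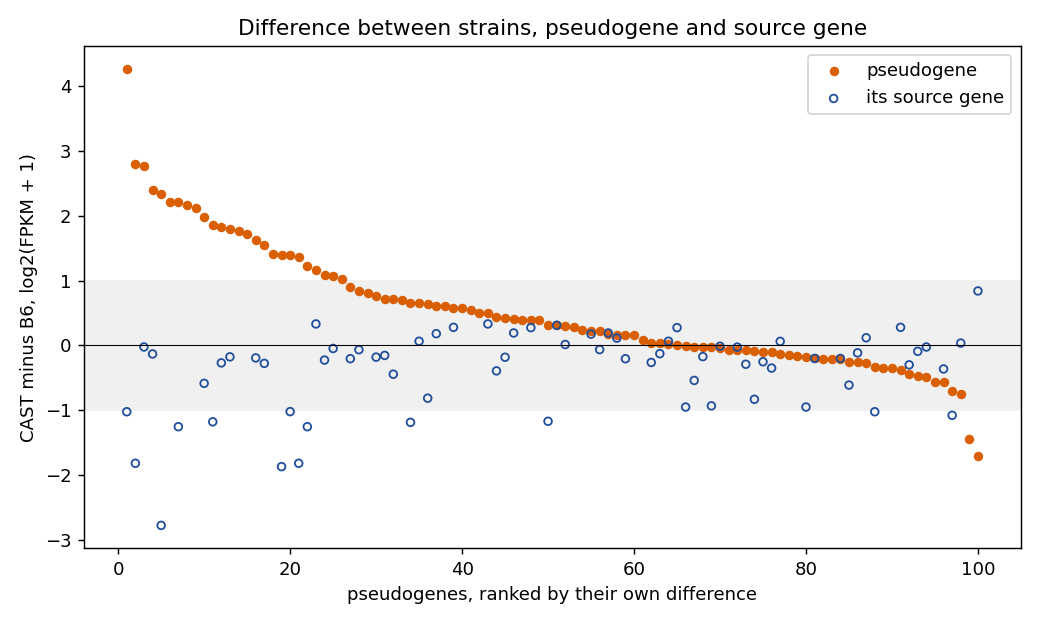
CAST minus B6 on log2(FPKM + 1) for all 100 pseudogenes, ranked by their own difference (filled orange), with the source gene in open blue where one was found. The grey band marks differences under 2-fold, above which 26 pseudogenes lie and below which 2 lie, and the open circles under the 26 are mostly below 0.

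The share of common sequence was set beside the differences. Of the 26 members with over 90% of their words shared 9 were higher, of 28 with over 75% to 90% 6 were, of 23 with over 50% to 75% 9 were, and of 23 with at most 50% 2 were. In GENCODE M21 transcripts 11 members had no word of their own. Of these 5 were higher (Cbx3-ps7, Pgam1-ps2, Amd-ps3, Apoo-ps and Dynlt1-ps1) and 6 were not. The deposited models of Amd-ps3 (1496 bases against 1005) and Apoo-ps (903 against 586) are longer than in that annotation. Words of their remaining bases were not compared. None of the 6 members under 5% shared passed the 2-fold rule, but 4 of them were at least 2-fold higher in CAST on FPKM itself, and 2 would pass with a pseudocount of 0.1. An example is Cdk3-ps at 0.265 in B6 and 1.06 in CAST. No share over all genes was set beside these 2 looser rules. Some of the values were low, with an estimated 14 fragments in B6 for Cdk3-ps and 7 for Aprt-ps. Across the 100 members Spearman's rho of the shared percentage with the difference was 0.08, as a description over genes measured in the same libraries. Members of 800 bases or more had 13 of 41 higher and a median difference of 0.65, those of 400 to under 800 had 8 of 39 and 0.17, and those of 200 to under 400 had 5 of 20 and 0.03. Few members overlapped an expressed gene on the same strand: 8 did, and 1 of these (Itpa-ps1) was higher. Another 13 overlapped an expressed gene on the opposite strand only, and 1 of these (Tubb4b-ps1, opposite Zfp804b) was higher. Of the 79 without such an overlap 24 were higher. Since the strand setting was not given, overlaps on either strand could affect the values.

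**Figure D4:**
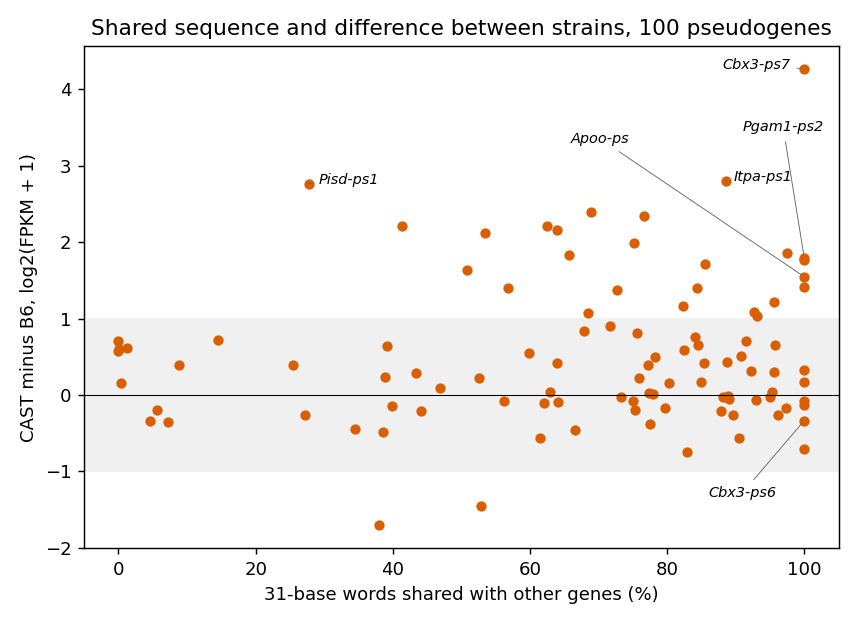
CAST minus B6 difference of each of the 100 pseudogenes (vertical axis, log2(FPKM + 1)) against the percentage of its 31-base words found in another gene (horizontal axis). The grey band marks differences under 2-fold; members at 100% run from -0.70 (Hmgn2-ps1) to 4.27 (Cbx3-ps7).

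Hybrid levels were placed on the scale from one parent to the other. On a scale with B6 at 0 and CAST at 1, the 28 members 2-fold apart between the strains had a median position of 0.48 in F1i, with quartiles of 0.40 and 0.53. For F1r the median was 0.47 and the quartiles 0.38 and 0.56. Both hybrids lay between 0.25 and 0.75 for 22 of the 28, and 24 of the 26 higher members had both hybrid values strictly between the parents. The same parental libraries chose these members and set the scale, so the positions are a description. On log2(FPKM + 1) the median positions were 0.63 and 0.60. The exceptions were Apoo-ps (1.003 in F1i and -0.00 in F1r), Atp5l-ps1 (0.37 and 1.13), Ftl1-ps1 (0.96 and 0.65), Nlrp5-ps (0.88 and 0.90), Dynlt1-ps1 (0.40 and 0.19) and Slc39a1-ps (0.25 and 0.38).

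**Figure D5:**
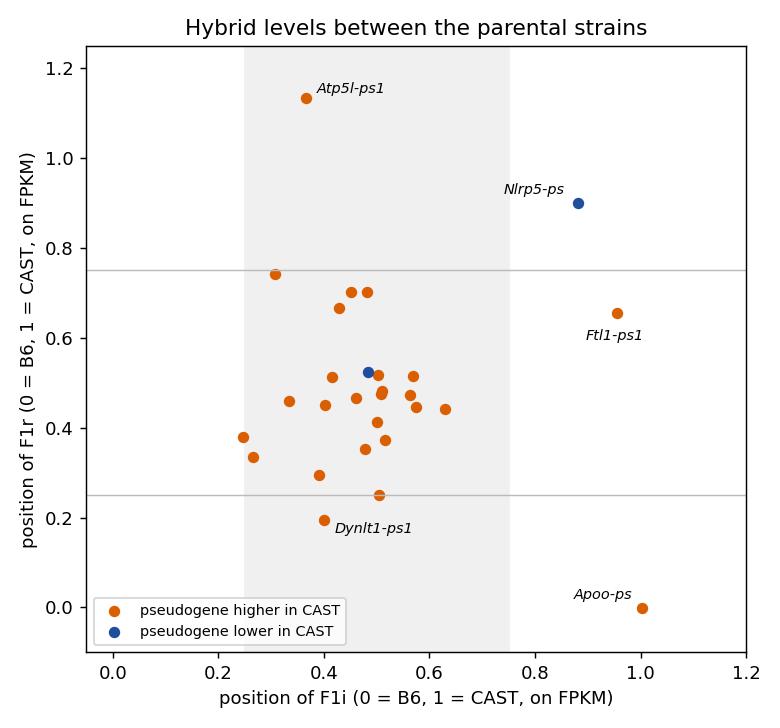
Position of F1r (vertical axis) against F1i (horizontal axis) for the 28 pseudogenes 2-fold apart between the strains, where 0 is the B6 level and 1 the CAST level on FPKM. The grey band and lines mark 0.25 to 0.75, which hold 22 of the 28 in both hybrids, and Apoo-ps lies alone at the level of CAST in F1i and of B6 in F1r.

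The reciprocal hybrids were compared with each other for an effect of cross direction. Apoo-ps was the 1 member past the rule, lower in F1r. The backgrounds were 0.273% lower and 0.293% higher among all genes, and 0 members were higher. Apoo-ps was at 1.80, 7.18, 7.20 and 1.80 FPKM, an estimated 69 fragments in B6 and 196 in CAST. So CAST and F1i were level with each other, as were B6 and F1r. The pseudogene lies on chromosome 13, but its source Apoo lies on the X chromosome, and it was the 1 autosomal member whose best match is X-linked. Apoo was at 18.5, 15.1, 13.5 and 19.4 in the same order, lower in value where Apoo-ps was higher. Each cross was 1 library, and whether reads of Apoo were counted for Apoo-ps was not tested. The deposited model of Apoo-ps is longer than in GENCODE M21, at 903 bases against 586, and whether the rest also matches Apoo was not tested. Of the 5 members that are themselves on the X chromosome only 2 were 2-fold apart between the strains, and neither showed this arrangement. Fam220-ps was at 1.77 in F1i and 1.66 in F1r, and Llph-ps2 at 2.78 and 4.33.

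The mean of the hybrids was also set against the mean of the parents. No member passed the rule in either direction, against 0.0572% higher and 0.172% lower among all genes. The values farthest from the parental mean were those of Atp5l2-ps, at 0.471 FPKM in B6, listed at 0 in CAST, and at 1.16 in F1i and 1.55 in F1r. Nlrp5-ps lay on the other side at -0.65. Of the 100 members 72 passed the 2-fold rule in none of the 3 comparisons.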

How the data were processed

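Brain RNA of 4 groups was sequenced, 1 library each. The deposited values are FPKM per transcript, which the authors made with bcl2fastq 2.20, Trimmomatic 0.36, HISAT2, Cuffdiff and Cufflinks 2.2.1, per the submitters' processing notes. Those notes name mm9, but the deposited coordinates match GRCm38 and GENCODE M21, with 91 of the 100 members at the same start and end. The strand setting, the treatment of reads with several places to map and any use of a CAST genome were not given in the sources used here.

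Transcripts of at least 200 bases were summed per gene, and genes with a mean of at least 0.5 FPKM were compared on log2(FPKM + 1) with a 2-fold rule and no test. Source genes were found by symbol and, separately, with BLAST 2.17.0 (e-value 1e-10) and words of 31 bases in GENCODE M21 transcripts. Python 3.11.15 and pandas 2.3.3 were used. The 2-fold rule and the hybrid positions were tested on simulated data, from genes with a mean of at least 5 FPKM. Weaker genes, the estimated fragments, the pairing with source genes and the sharing of reads were not covered. FPKM times length over the 1-fragment step gave the estimated fragments, which cover counting error only. The rule for named genes took the 12 largest strain differences each way, the 4 largest for the hybrid comparisons, the 6 most abundant members, the members nearest the threshold, up to 4 per role group, and their source genes. Further members were picked for naming once their values had been seen. The members, lists and rules were chosen with earlier results of these data known.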

Additional observations from a re-analysis of the deposited data

How the results depend on the processing

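With 1 library a group, leaving out a replicate could not be done. No paired analysis was possible because each group has 1 library and the labels give no replicate numbers. A recomputed count was taken as unchanged within a factor of 1.5 and a median within 0.1. By these tolerances 124 values were unchanged, 26 moved and 1 reversed. No share over all genes was set beside the counts of the settings that follow, except for rescaling. With the pseudocount at 0.1 FPKM, 35 of the 100 members were higher and 5 lower in CAST. The median difference was 0.45, and 2 members were higher in F1r and 2 in the hybrid mean. At a mean of at least 5 FPKM, 13 of the 29 members left were higher and 0 lower in CAST. The median was 0.55, 0 were lower in F1r and 15 of 21 pairs lay on opposite sides of 0. Without a filter on low values the median over 272 genes was 0, 67 of 150 pairs were on opposite sides and 1 source gene was higher. Transcripts of every length gave 1 member higher in F1r and 1 in the hybrid mean. Rescaling to the same total gave a median of 0.54, an F1i position of 0.37, and 4 source genes lower and 1 higher. Of the 19 higher members with a source gene, 10 then had a source below 0. On log2(FPKM + 1) the hybrid positions were 0.63 in F1i and 0.60 in F1r. The value counted as reversed was the median of -0.15 for members summed with their source genes, which the far larger source values dominate. It covers only members with a source gene and is a plain log2 ratio, so it is unlike the member median. Among alternatives chosen after seeing the data, 1 kept the 46 members that share at most 75% of their words, with 27 pairs. It gave 11 higher in CAST, 0 lower in F1r, 3 source genes lower and 16 opposite pairs. Taking source genes by sequence gave 1 source gene higher. For the other moved values the cause was not tested.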

Other observations

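A stretch of chromosome 6 (GRCm38, 85076192 to 85804057, 728 kb) held 4 of the members, chosen after their values were seen. All 4 were above 0 in CAST minus B6 on log2(FPKM + 1): Npm3-ps1 (1.37), Spr-ps1 (0.72), Alms1-ps1 (0.50) and Alms1-ps2 (1.17), of which the first and the last passed the 2-fold rule. For comparison, 65 of all 100 members were above 0. Alms1-ps1, next to its source Alms1, was at 0.353, 0.917, 0.470 and 0.405 FPKM (B6, CAST, F1i, F1r in that order). Of the 12 other expressed genes in the stretch 4 were above 0 and 8 below, with a median of -0.05. Among these, Nat8f7, of an N-acetyltransferase family, was 2-fold higher, at 0.111, 2.05, 0.807 and 0.770 FPKM.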
